A study of Mus musculus with 8 samples.

Results

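The enzymes that cross-link collagen are described here in breast tumours of obese and lean mice. The set has 9 genes, taken by name from the 50143 gene IDs of the deposited count table: the lysyl oxidase gene Lox and its relatives Loxl1, Loxl2, Loxl3 and Loxl4, the lysyl hydroxylase genes Plod1, Plod2 and Plod3, and the transglutaminase gene Tgm2. The tumours grew from Py230, a cell line of mouse breast adenocarcinoma, in mammary gland 4 of female C57BL/6 mice. Obese mice (4 tumours) ate a high-fat diet with 60% of calories as fat and 5.1 kcal/g, and were 35% heavier on average. Lean mice (4 tumours) ate a regular diet with 10% of calories as fat and 3.6 kcal/g. All mice, lean ones included, had been ovariectomized at 6 weeks of age, started their diet 2 weeks later and received tumour cells after 6 weeks of diet. Tumours were taken on day 56. The model is thus 1 cell line in hosts without ovaries, and the labels do not say whether each tumour came from a separate mouse, so p-values measure the spread between these tumours.

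Collagen is stabilised in steps. Inside the cell, lysyl hydroxylases add hydroxyl groups to lysines of the new chains. After secretion, lysyl oxidases, which need copper, turn lysines and hydroxylysines into reactive aldehydes that join neighbouring chains, in collagen and in elastin. Whether the lysine had been hydroxylated decides which kind of cross-link forms. Transglutaminases use another chemistry and join glutamine to lysine side chains in many proteins. Cross-linked collagen stiffens the matrix, and lysyl oxidases are best known in breast tumours for that stiffening.

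The catalytic part of the lysyl oxidases binds copper through a cluster of histidines, and the DNA that codes for it shows how close the relatives are. The 33 coding bases of that cluster are printed below for 4 relatives from the GENCODE M21 transcripts (GRCm38), 5′ to 3′ on the strand of the gene, with the 4 histidine codons in capitals.
Loxl1: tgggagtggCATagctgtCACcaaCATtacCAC
Loxl2: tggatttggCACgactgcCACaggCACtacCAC
Loxl3: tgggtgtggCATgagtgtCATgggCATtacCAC
Loxl4: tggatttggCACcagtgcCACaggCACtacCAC
In each gene the stretch crosses an exon border, after which the transcript has 4 more exons. The outer bases lie at chr9:58293720-58294381 (minus strand) in Loxl1, chr14:69682316-69689037 (plus) in Loxl2, chr6:83049995-83050125 (plus) in Loxl3 and chr19:42598807-42599899 (minus) in Loxl4. Loxl2 and Loxl4 share 31 of the 33 bases (93.9%). They are also the pair whose RNA was higher in obese tumours. Loxl1 shares 22 bases with Loxl2 and 21 with Loxl4, and Loxl3 shares 25 with each of the other three. The RNA of Loxl1 and Loxl3 was lower in obese tumours. Lox was not part of this comparison of bases, and a link between the bases and the RNA changes was not tested.

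Total counts per tumour were 25.7 to 66.7 M in obese and 39 to 53.7 M in lean mice, and values are given in CPM, counts per 1 M counts after scaling with TMM factors. Obese replicate 3 stood apart. In a principal component analysis (first component, 88.6% of the variance) its coordinate was 12.9. That lay between the remaining obese tumours (−136 to −96.5) and the lean tumours (70.2 to 93.7). Changes of the enzymes are therefore also given without obese replicate 3, and those of other genes only in some cases. The labelled tissue held RNA of mammary epithelium, but less of it in obese tumours. The summed level of 8 epithelial markers was 63.0 to 701 CPM in obese and 1869 to 2836 CPM in lean tumours. Of these markers 5 fell and 0 rose, and Krt5 and Krt14 each had a count of 0 in 1 library. Epcam, Cdh1 and Krt18 lay lower in every obese tumour than in any lean one but did not pass (edgeR adjusted p 0.101 to 0.133). The 701 CPM was that of obese replicate 3. Its Epcam level was 175 CPM, against 0.495 to 5.52 CPM in the other obese tumours.

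All 9 enzymes passed the filter on low counts. Of these 4 rose, 2 fell and 3 did not pass the test (edgeR's quasi-likelihood test, adjusted p under 0.05). Among all 14887 tested genes 59.2% passed, with 30.9% higher and 28.4% lower, so the count of 6 in 9 is near the background. Of the calls over all genes 52.1% were rises, and 41.2% when libraries were scaled by upper quartiles. The groups did not overlap for 6 of the 9 enzymes (4 above, 2 below), against 57% of all tested genes (28.9% above, 28.1% below). The median absolute log2 change was 1.74 over the 9 enzymes and 0.89 over all tested genes, and the median signed change 0.45 and −0.04. The plot of all enzymes by tumour gives the single values.

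**Figure D1:**
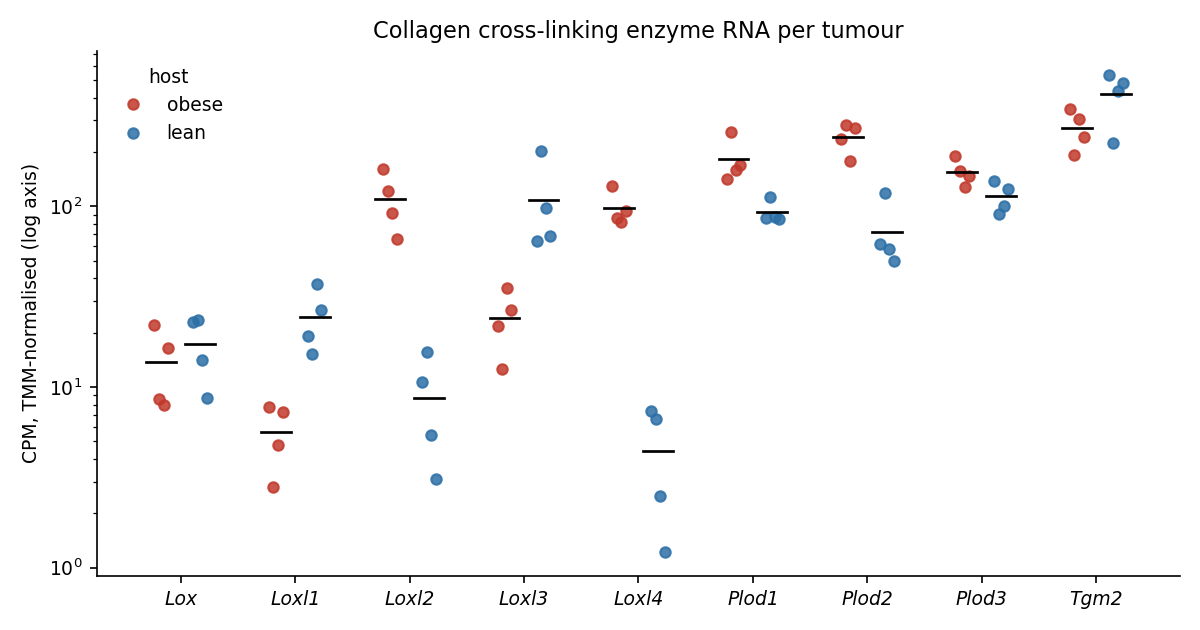
RNA level of the 9 enzymes in each tumour, in TMM-normalised CPM on a log axis. Points are tumours, obese left of lean, and lines are means of 4 tumours. Loxl2, Loxl4, Plod1 and Plod2 lay higher in every obese tumour than in any lean one, Loxl1 and Loxl3 lower, and Lox, Plod3 and Tgm2 overlapped.

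Loxl4 had the largest change of the 9. Its product, like those of Loxl2 and Loxl3, carries scavenger receptor cysteine-rich domains in front of the catalytic part. Loxl4 (ENSMUSG00000025185, chr19:42593982-42612813) stood at 129, 86.5, 81.9 and 94.4 CPM in obese replicates 1 to 4, against 7.39, 6.65, 2.5 and 1.23 CPM in lean replicates 1 to 4. The lowest obese tumour was thus far above the highest lean one, and lean replicates 3 and 4 were the lowest of all. The log2 change was 4.46 ± 0.59 (SE, edgeR adjusted p = 0.00088), a 22.1-fold difference, and 4.55 without obese replicate 3. Of all tested genes 1.25% had a higher log2 change.

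Loxl2, whose product cross-links type IV collagen of basement membranes, followed. Loxl2 (ENSMUSG00000034205, chr14:69609068-69695834) stood at 162, 121, 91.6 and 66.1 CPM in the obese tumours, against 10.6, 15.7, 5.45 and 3.11 CPM in the lean tumours. The groups did not overlap, and lean replicate 4 was the lowest tumour for this gene, as for Loxl4. The log2 change was 3.66 ± 0.55 (edgeR adjusted p = 0.00146), a 12.6-fold difference, and 3.75 without obese replicate 3. Loxl2 has a copy in this genome build that shares part of its sequence. Of its 5356 distinct 50-base stretches 45% also occur in transcripts of other genes, most of them (2299) in the pseudogene Gm21451 on the same chromosome (chr14:69390854-69480287). Gm21451 had a count of 0 in all 8 libraries. How reads that match both places were counted is not given in the sources used here, so the Loxl2 level is uncertain in both groups.

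Loxl3 and Loxl1 went the other way. Loxl3, needed for palate and spine formation in mice, was the most abundant lysyl oxidase RNA of the lean tumours. Loxl3 (ENSMUSG00000000693, chr6:83034173-83052562) stood at 21.9, 12.6, 35.2 and 26.7 CPM in the obese tumours, against 64.7, 202, 98.4 and 68.3 CPM in the lean tumours. All obese tumours lay below all lean ones, and lean replicate 2 was well above the other lean tumours. This was a log2 change of −2.17 ± 0.46 (edgeR adjusted p = 0.0055). It was −2.40 without obese replicate 3 and −1.68 without lean replicate 2. The exons of Loxl3 overlap those of Htra2 on the opposite strand over 535 bases, and 8.54% of its 50-base stretches occur in Htra2 transcripts too.

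Loxl1 helps to maintain elastic fibres. Loxl1 (ENSMUSG00000032334, chr9:58287738-58313186) stood at 7.80, 2.80, 4.80 and 7.29 CPM in the obese tumours, against 19.1, 15.2, 37.1 and 26.7 CPM in the lean tumours. Again no obese tumour reached the lean range. Its log2 change was −2.11 ± 0.41 (edgeR adjusted p = 0.00384), and −2.03 without obese replicate 3.

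Lox, the founding member, oxidises fibrillar collagen and elastin. Lox (ENSMUSG00000024529, chr18:52516067-52529867) stood at 21.9, 8.59, 7.99 and 16.5 CPM in the obese tumours, against 23.0, 23.5, 14.2 and 8.67 CPM in the lean tumours. Each group held both low and high tumours, and the ranges overlapped almost fully. The log2 change was −0.33 ± 0.43 (95% confidence interval −1.33 to 0.66, edgeR adjusted p = 0.52), an interval that holds sizeable changes in both directions. Without obese replicate 3 the change was −0.136, and with limma-voom and sample quality weights it was 0.105.

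**Figure D2:**
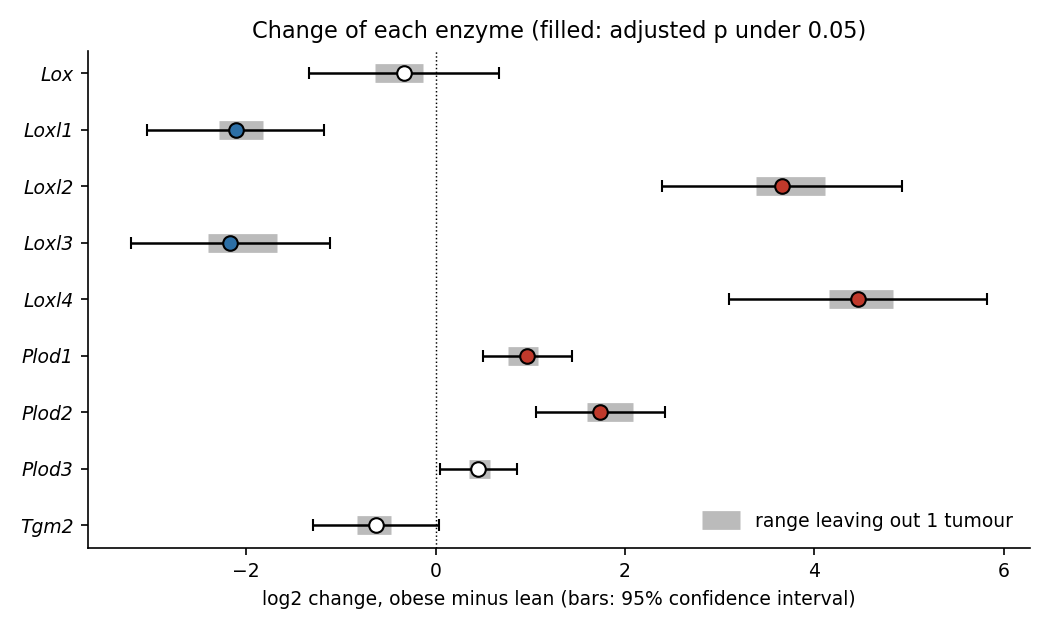
Log2 change of each enzyme, obese minus lean, with its 95% confidence interval (thin bars), the range over the 8 fits that leave out 1 tumour (grey) and a filled point where the adjusted p was under 0.05. Loxl4 (4.46) and Loxl2 (3.66) lie farthest right, Loxl3 (−2.17) and Loxl1 (−2.11) farthest left.

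The make-up of the lysyl oxidase family therefore differed between the groups, which the plot of family shares shows. Shares were taken from CPM per kb of exon, so that genes of unequal length can be set side by side, and they do not depend on how libraries are scaled. Loxl2 and Loxl4 together made up 83.8, 88.9, 77.2 and 75.1% of family RNA in obese replicates 1 to 4, against 13.1, 7.73, 4.31 and 3.38% in lean replicates 1 to 4. Every obese tumour, replicate 3 included, was made up mainly of this pair. Loxl3 held 6.58, 5.67, 16.2 and 12.6% in the obese tumours, against 49.5, 75.8, 57.5 and 57.9% in the lean tumours. Loxl1 held 1.76 to 4.80% in obese and 7.96 to 31.6% in lean tumours, with the low lean value in replicate 2, where Loxl3 was highest. Lox itself held 3.54 to 7.50% in obese and 7.09 to 17% in lean tumours. The family total was 53.5 ± 12.6 CPM per kb in obese and 37.3 ± 14.6 CPM per kb in lean tumours (SD, n = 4 each), and its ranges (46.1 to 72.3 and 25.6 to 58.0) overlapped. With only the unshared 50-base stretches counted as length, which raises Loxl2, the pair averaged 84.9% in obese and 9.75% in lean tumours.

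**Figure D3:**
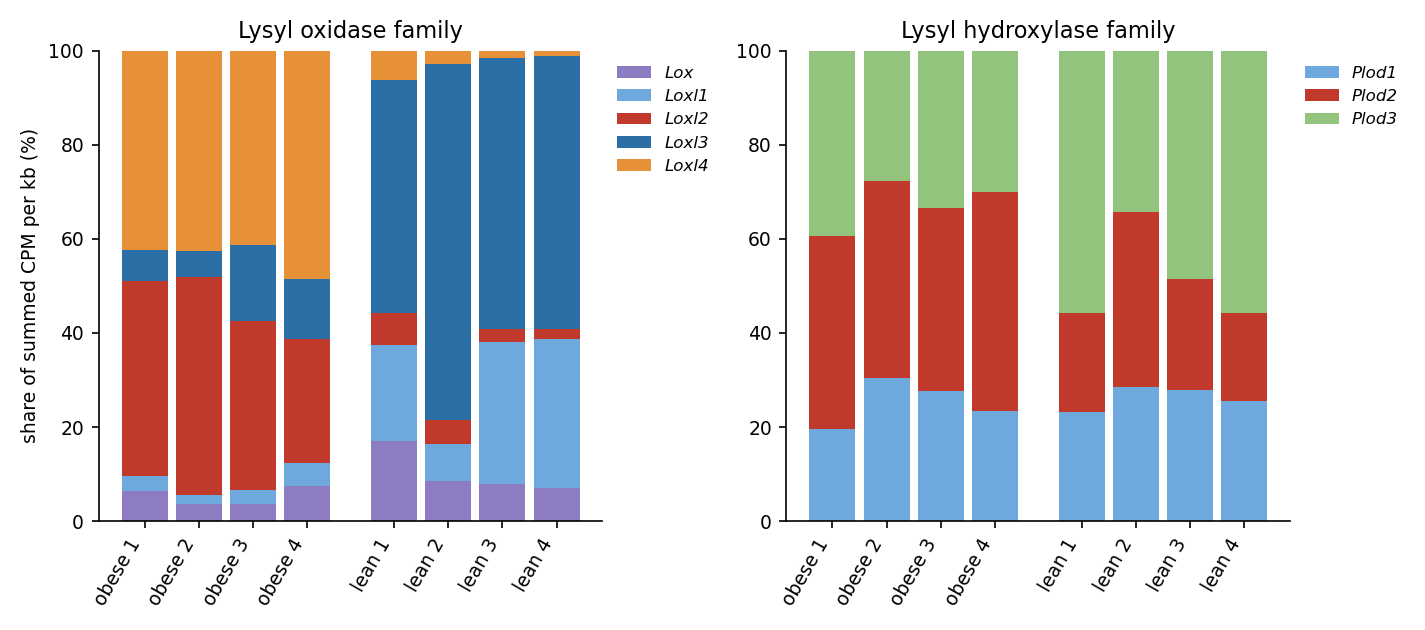
Share of each member in the summed CPM per kb of the lysyl oxidase family (left) and of the lysyl hydroxylase family (right), 1 bar per tumour, obese tumours left of lean ones. Loxl2 and Loxl4 fill at least 75.1% of each obese bar and at most 13.1% of each lean bar of the lysyl oxidases, and Plod2 fills 39.0 to 46.6% of the obese and 18.8 to 37.4% of the lean bars of the lysyl hydroxylases.

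All 3 lysyl hydroxylases had higher means in obese tumours, and 2 of them passed. Plod2 hydroxylates lysines in the end regions of the collagen chain, the telopeptides, which leads to the most stable cross-links. Plod2 (ENSMUSG00000032374, chr9:92542223-92608428) stood at 236, 282, 178 and 270.4 CPM in the obese tumours, against 62.3, 118.5, 58.4 and 50.1 CPM in the lean tumours. The groups were separate, with obese replicate 3 the lowest obese tumour and lean replicate 2 the highest lean one. The log2 change was 1.74 ± 0.30 (edgeR adjusted p = 0.00235), 1.87 without obese replicate 3 and 2.08 without lean replicate 2.

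Plod1 hydroxylates lysines in the helical part of collagen. Plod1 (ENSMUSG00000019055, chr4:147909753-147936767) stood at 142, 258, 158 and 170 CPM in the obese tumours, against 86.0, 113, 87.1 and 85.3 CPM in the lean tumours. The groups did not overlap, and 3 lean tumours were nearly equal. Its log2 change was 0.97 ± 0.21 (edgeR adjusted p = 0.00564), and 1.05 without obese replicate 3.

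Plod3 hydroxylates lysines and can also attach sugars to the hydroxylysines. Plod3 (ENSMUSG00000004846, chr5:136987019-136996648) stood at 190.5, 157, 127 and 146 CPM in the obese tumours, against 138, 90.8, 101 and 125 CPM in the lean tumours. Obese replicate 3 lay within the lean range. The log2 change of 0.45 ± 0.18 did not pass (edgeR adjusted p = 0.0553, 95% confidence interval 0.05 to 0.86), and did without obese replicate 3 (0.55, adjusted p = 0.0281) or without lean replicate 1 (0.57, adjusted p = 0.0481). Plod3 shares 529 exon bases with Znhit1 on the opposite strand, and 9.81% of its 50-base stretches occur in transcripts of other genes.

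Within the hydroxylase family the balance shifted less than among the oxidases. Plod2 held 41.0, 41.8, 39.0 and 46.6% of its CPM per kb in the obese tumours, against 21.1, 37.4, 23.5 and 18.8% in the lean tumours. The values were separate, but lean replicate 2 came close to the obese ones. The ratio of Plod2 to Plod1 was 2.09, 1.37, 1.41 and 2.0 in the obese tumours, against 0.91, 1.32, 0.84 and 0.74 in the lean tumours. Plod1 held a similar share, 19.6 to 30.5% in obese and 23.2 to 28.4% in lean tumours. The family total was 106 ± 16.7 CPM per kb in obese and 52.3 ± 5.63 CPM per kb in lean tumours (SD, n = 4 each), without overlap.

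Tgm2 codes for tissue transglutaminase, a calcium-dependent enzyme that works inside and outside cells. Tgm2 (ENSMUSG00000037820, chr2:158116402-158146436) stood at 346, 192, 306 and 242 CPM in the obese tumours, against 536, 225, 435 and 482 CPM in the lean tumours. Lean replicate 2 lay within the obese range, while the other three lean tumours lay above it. The log2 change of −0.63 ± 0.29 did not pass (edgeR adjusted p = 0.0918, 95% confidence interval −1.30 to 0.04). Without lean replicate 2 it was −0.83 and passed (adjusted p = 0.0132), and it was −0.68 without obese replicate 3. The exons of Tgm2 overlap opposite-strand exons of Rprd1b over 370 bases and of Gm20412, which had 0 counts, over 633 bases, and 18.7% of its 50-base stretches also occur in transcripts of other genes. Macrophages are a known source of Tgm2, and lean replicate 2 also had the lowest summed level of 8 macrophage markers, 1241 CPM, against 2530 to 3356 CPM in the other lean tumours. In obese tumours that sum was 1603 to 2162 CPM. The markers did not move together between the groups. Adgre1 (1.22), Cd68 (1.41) and Mrc1 (2.93), named after their values were seen, rose, Csf1r (−0.54) fell and 4 did not pass. In lean replicate 2 Mrc1 was the highest of the lean tumours (23.3 CPM), and every other marker the lowest. The part of macrophages in the Tgm2 result was not tested.

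Per kb of exon, Tgm2 was the highest of the 9 RNAs by mean in both groups, at 58.9 ± 14.8 CPM per kb in obese and 91.0 ± 29.5 CPM per kb in lean tumours. In obese tumours the order went on with Plod2 (44.8), Plod3 (34.4), Plod1 (26.9), Loxl4 (23.3), Loxl2 (20.4), Loxl3 (5.24), Lox (2.88) and Loxl1 (1.72 CPM per kb). The only neighbours with separate ranges there were Loxl2 and Loxl3. In lean tumours Tgm2 was followed by Plod3 (25.1), Loxl3 (23.6), Plod1 (13.7), Plod2 (13.4), Loxl1 (7.44), Lox (3.63), Loxl2 (1.61) and Loxl4 (1.05 CPM per kb). There only Tgm2 and Plod3 were separate neighbours. Loxl4 and Loxl2 were thus the last in lean tumours and stood above the other lysyl oxidases in obese tumours.

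The genes that act on collagen before cross-linking changed in both directions. Of 15 genes of collagen hydroxylation and folding 6 rose and 3 fell, and their median log2 change was 0.50. Among all tested genes 30.9% rose and 28.4% fell. This and the other list and marker counts are to be read against that background. The genes that fell, named after their values were seen, were P3h2 (−2.83), Fkbp14 (−2.71) and Colgalt2 (−3.99), which code for a prolyl 3-hydroxylase, a prolyl isomerase and a collagen sugar transferase. Fkbp10, whose product is needed for telopeptide lysine hydroxylation in humans, stood at 340, 295, 174 and 155 CPM in obese and 28.9, 24.9, 17.6 and 14 CPM in lean tumours (log2 change 3.49 ± 0.35, edgeR adjusted p = 0.000325). The groups were far apart, with the order of obese tumours close to that of Loxl2. P4ha1, a catalytic subunit of prolyl 4-hydroxylase, averaged 220 ± 24.2 CPM in obese and 69.2 ± 29.1 CPM in lean tumours and rose (1.67 ± 0.30, edgeR adjusted p = 0.00295). The collagen chaperone gene Serpinh1 (1.24 ± 0.19, adjusted p = 0.00163) and P3h3, whose product takes part in lysine hydroxylation in mice (1.37 ± 0.24, adjusted p = 0.00286), rose too.

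Genes of procollagen trimming, which are proteases and the enhancers Pcolce and Pcolce2, also split. Of 7 tested genes (Tll2 was not tested) 4 rose, Pcolce and Pcolce2 among them, and 2 fell, for a median of 0.68. Adamts3 was the second fall (−1.92, edgeR adjusted p = 0.0498) and Pcolce the fourth rise (1.04), both named after their values were seen. The 2 falls became 1 without obese replicate 1, 3 or 4 or without lean replicate 2 or 3. Bmp1, which removes the C-propeptide of procollagen and also activates the Lox proenzyme, rose (0.68 ± 0.18, edgeR adjusted p = 0.0135). Among enzymes that remove the N-propeptide, Adamts14 averaged 78.6 ± 32.0 CPM in obese and 5.72 ± 2.0 CPM in lean tumours and rose (3.78 ± 0.37, adjusted p = 0.000298), while Adamts2 averaged 9.26 ± 3.57 and 33.7 ± 15.6 CPM and fell (−1.86 ± 0.43, adjusted p = 0.00756). Pcolce2, an enhancer of C-propeptide removal, rose (2.37 ± 0.57, adjusted p = 0.00909).

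Among the substrates, fibrillar collagen chains were mixed and elastic fibre genes mostly lower. Of 11 fibrillar chains 3 rose and 2 fell (median −0.56). Col5a3 (4.56 ± 0.54, edgeR adjusted p = 0.000555) and Col5a1 (2.16 ± 0.41, adjusted p = 0.00359), chains of type V collagen, rose, and Col27a1 (−3.17 ± 0.51, adjusted p = 0.00188) and Col11a2 (−2.02 ± 0.27, adjusted p = 0.000855) fell. Col3a1, Col1a1 and Eln were chosen after their values were seen, as the main substrates. Col3a1 rose (1.73 ± 0.44, adjusted p = 0.0116). Col11a1 (−3.94, adjusted p = 0.111) and Col1a2 (−0.87, adjusted p = 0.0741), also named after their values were seen, did not pass. Col11a1 averaged 24.8 ± 47.4 CPM in obese and 382 ± 186 CPM in lean tumours, without overlap. Col1a2 averaged 189 and 346 CPM, with overlap. Col1a1 stood at 244, 945, 66.4 and 259 CPM in obese and 288, 187.5, 305.5 and 257 CPM in lean tumours and did not pass (0.54 ± 0.68, adjusted p = 0.501), with a change of −0.44 without obese replicate 2, the highest tumour. Among 16 elastic fibre genes there were 11 falls and 4 rises (median −2.08). Eln, the elastin gene, stood at 4.13, 2.56, 41.0 and 7.37 CPM in obese and 108, 292, 232 and 181 CPM in lean tumours and fell (−3.88 ± 0.94, adjusted p = 0.00974, or −5.43 without obese replicate 3). Emilin1, an elastic fibre glycoprotein gene, fell as well (−1.94 ± 0.32, adjusted p = 0.00215). Fbln2 (2.57 ± 0.44, adjusted p = 0.0024), Ltbp4 (1.91 ± 0.36, adjusted p = 0.00333) and Ltbp1 (1.16 ± 0.18, adjusted p = 0.00157) rose, as did Efemp2 (0.91, adjusted p = 0.0211), whose product helps to recruit Lox to elastic fibres and which was named after its value was seen. Over all tested genes the median was −0.04, with 30.9% higher and 28.4% lower.

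**Figure D4:**
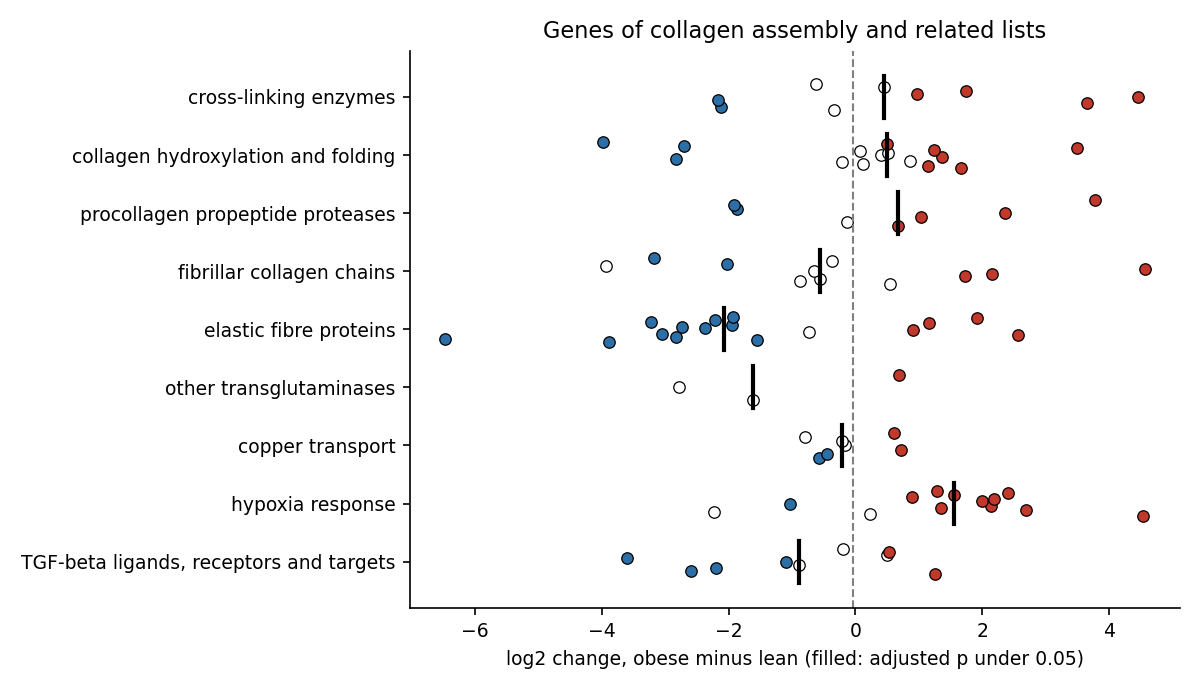
Log2 change, obese minus lean, of each tested gene of the cross-linking enzymes and of 8 further lists. Filled points had an adjusted p under 0.05, thick bars are list medians and the dashed line is the median of all tested genes (−0.04). Elastic fibre genes lie mostly left (median −2.08) and hypoxia response genes mostly right (1.56).

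Enzyme RNA was also set against the RNA of its substrate, per 100 CPM per kb of the 11 fibrillar collagen chains. The mix of chains in that sum differed between the groups, with more Col3a1 and Col5a3 and less Col11a1 in obese tumours. Loxl2 and Loxl4 together stood at 17.2, 6.77, 19.9 and 8.87 in the obese tumours, against 2.03, 2.30, 0.88 and 0.60 in the lean tumours. The lowest obese tumour was above the highest lean one. For the lysyl oxidase family as a whole the values were 7.61 to 25.8 in obese and 15.5 to 29.8 in lean tumours. The lysyl hydroxylases came to 19.7 to 46.1 in obese and 25.2 to 34.5 in lean tumours. Both family ranges overlapped. Obese replicate 2, with the most fibrillar collagen RNA (635 CPM per kb), had the lowest ratio in each case among obese tumours. Obese replicate 3, with the least (183 CPM per kb), had the highest. Fibrillar collagen RNA is the denominator of these ratios, so this order is in part built in.

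**Figure D5:**
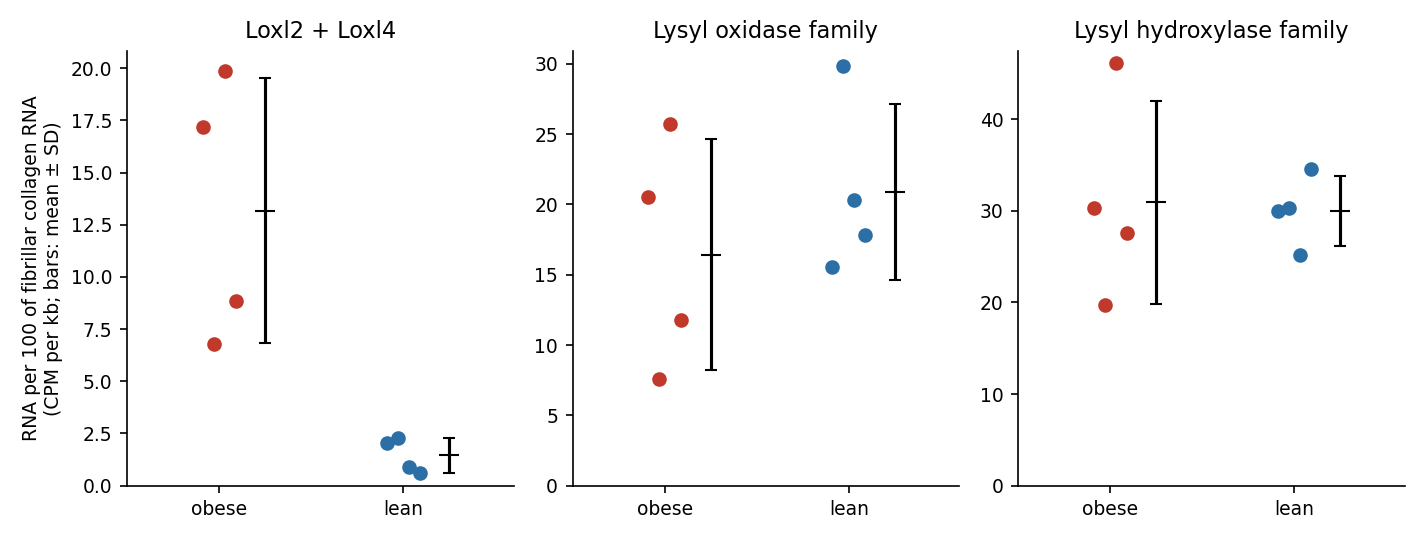
RNA of Loxl2 plus Loxl4, of the lysyl oxidase family and of the lysyl hydroxylase family per 100 units of fibrillar collagen RNA, in CPM per kb, by tumour, with mean ± SD (n = 4 each), obese left of lean. Loxl2 plus Loxl4 averaged 13.2 in obese and 1.45 in lean tumours, while the family ranges overlapped.

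Copper transport genes were mixed, and hypoxia response genes mostly higher. Of 7 tested copper transport genes (Atp7b was not tested) 2 rose and 2 fell (median −0.22). Atp7a, the pump that loads copper into secreted enzymes such as lysyl oxidases, rose (0.71 ± 0.14, edgeR adjusted p = 0.00456), as did Sco1 (0.61 ± 0.13, adjusted p = 0.0057), a copper chaperone of mitochondria. The copper importer gene Slc31a1 (−0.57 ± 0.18, adjusted p = 0.0228) and its relative Slc31a2 (−0.45 ± 0.14, adjusted p = 0.0215) fell. Both of these calls were lost without obese replicate 1 (−0.52 with adjusted p = 0.0602 for Slc31a1, −0.35 with 0.0502 for Slc31a2) and without obese replicate 4 (−0.49 with 0.068 and −0.44 with 0.0586), and that of Slc31a1 also without obese replicate 2 (−0.49 with 0.0617). Low oxygen induces Plod2, P4ha1 and several lysyl oxidases in many cell types. Of 13 hypoxia response genes 10 rose and 1 fell, Egln3 (−1.04), for a median of 1.56. The other 2, named after their values were seen, did not pass. Car9 averaged 19.5 CPM in obese and 92.0 CPM in lean tumours (−2.24 ± 0.90, edgeR adjusted p = 0.0604), and Vegfa changed by 0.23 ± 0.18 (adjusted p = 0.276). The vasodilator peptide gene Adm (4.54 ± 0.46) and Ero1l (2.40 ± 0.23), an oxidase of the endoplasmic reticulum, had adjusted p = 0.000325 and 0.000287 (edgeR). Slc2a1 (2.69 ± 0.28, adjusted p = 0.000325) and Bnip3 (2.13 ± 0.22, adjusted p = 0.000338), genes of glucose uptake and of mitochondrial turnover, rose as well. Without obese replicate 3, 2 hypoxia genes fell. The part of oxygen supply in the enzyme results was not tested.

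Of 9 genes of TGF-beta signalling, which induces lysyl oxidases in fibroblasts, 2 rose and 4 fell (median −0.89). The ligand gene Tgfb1 rose (1.25 ± 0.31, edgeR adjusted p = 0.0102). Ccn2, a target of the pathway (−3.60 ± 0.57, adjusted p = 0.00183), the ligand gene Tgfb2 (−2.60 ± 0.40, adjusted p = 0.00151) and the receptor gene Tgfbr2 (−1.09 ± 0.23, adjusted p = 0.00543) fell. Outside the naming rule, the inhibitor gene Smad7 (0.52) rose and the ligand gene Tgfb3 (−2.20) fell. The 2 rises became 1 without obese replicate 1, 2 or 4 or without lean replicate 2, 3 or 4. Of 9 other transglutaminase genes 3 were tested and 1 passed, F13a1 (0.69 ± 0.26, adjusted p = 0.0493). That call was lost without any 1 of the tumours other than obese replicate 3.

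Of the summed marker levels of 6 other cell types, only that of pericytes and smooth muscle was separate between the groups. In such bulk samples fewer cells of a type and less RNA per cell cannot be told apart. Fibroblasts are the usual source of collagen-modifying enzymes, and 8 fibroblast markers had a summed level of 283 to 687 CPM in obese and 296.5 to 602 CPM in lean tumours, with 2 higher (Pdgfra and Pdgfrb) and 5 lower. Pericyte and smooth muscle markers summed to 64.4 to 106 CPM in obese and 162 to 2607 CPM in lean tumours, with 0 of 6 higher and 4 lower. The highest value was that of lean replicate 2, where Acta2 alone stood at 2335 CPM. Acta2 overlapped between the groups (35.3 to 88.7 CPM in obese and 41.5 to 2335 CPM in lean tumours), and of these markers only Notch3 did not. Among lean tumours replicate 2 also had the most Lox, Loxl2, Loxl3, Plod1 and Plod2 RNA and the least Loxl1, Plod3 and Tgm2 RNA, with Loxl4 in between. Of 8 endothelial markers 4 fell and 0 rose (131 to 195 and 153 to 340 CPM), and of 8 macrophage markers 3 rose and 1 fell. Adipocyte markers (24.9 to 446 and 134 to 524 CPM) and skeletal muscle markers (5.70 to 198 and 46.1 to 1293 CPM) overlapped, each with 1 of 7 lower and 0 higher. None of the markers of these 6 cell types was at 0 in any library. Their part in the enzyme results was not tested.

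For each enzyme the tested gene with the most similar profile over the 8 tumours was found by the root mean square difference of centred log2 CPM. Predicted gene models, clone names, genes of low mean level and the enzymes themselves were left out of the search. Col12a1, a collagen gene, was nearest to Lox (0.32) and Ptges, the prostaglandin E synthase gene, to Loxl2 (0.29). Rec114 was nearest to Loxl4 (0.27), Lrg1 to Loxl1 (0.28) and Pcsk5, a proprotein convertase gene, to Loxl3 (0.21). For the hydroxylases these were Tcf12 for Plod1 (0.075), Mcph1 for Plod2 (0.091) and Gtf2f1 for Plod3 (0.084). Polr2f was nearest to Tgm2 (0.043).

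RefSeq promoter windows (GRCm38.p6) were at hand for 3 of the enzymes, Loxl4, Plod1 and Plod3. Loxl4 and Plod1, which both rose, are shown as the 250 bases before the start site, 5′ to 3′ on the gene's strand. Capitals mark GCGTG or ACGTG on either strand, the core to which hypoxia-inducible factors bind. The windows are chr19:42612807-42613056 (minus strand) and chr4:147936777-147937026 (minus strand).
Loxl4: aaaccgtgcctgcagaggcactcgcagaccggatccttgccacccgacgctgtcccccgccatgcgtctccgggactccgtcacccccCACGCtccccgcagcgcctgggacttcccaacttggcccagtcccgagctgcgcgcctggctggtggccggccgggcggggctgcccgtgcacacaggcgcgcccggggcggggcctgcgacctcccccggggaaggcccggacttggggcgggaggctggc
Plod1: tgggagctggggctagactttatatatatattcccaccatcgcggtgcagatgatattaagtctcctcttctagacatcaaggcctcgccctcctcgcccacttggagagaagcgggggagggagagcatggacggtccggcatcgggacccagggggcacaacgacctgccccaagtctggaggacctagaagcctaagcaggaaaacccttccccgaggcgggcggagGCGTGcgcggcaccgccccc
Each holds 1 GCGTG and 0 ACGTG. The Plod3 window holds 3 GCGTG and 1 ACGTG, although Plod3 did not pass. Of 32851 windows of this length 28.2% hold GCGTG, 16.6% ACGTG and 38.6% either, so these matches are common, and a match is not a site.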

How the data were processed

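RNA sequencing of 8 tumours gave a deposited table of counts, the whole number of reads per Ensembl gene, in 1 column for each tumour, not normalized (unit from the values). The submitters' processing notes list the aligner STAR 2.5.2b, the counter HTSeq, cutadapt 1.12, CASAVA 1.8 and bcl2fastq 2.18.0.12, and the build mm10. The annotation, strand setting and treatment of reads with several matches are not given in the sources used here. The library kit is stranded, per the labels' protocols. Symbols, positions (from 1) and exon lengths came from GENCODE M21 (GRCm38). Columns were matched to labels by the tumour number, and replicate numbers follow accession order. Within each group, no library was a duplicate of another, and pairs across the groups were not compared.

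Genes were kept by filterByExpr (minimum count 10, minimum total 15), scaled by TMM and tested, obese against lean, two-sided, by the robust quasi-likelihood method of edgeR 4.0.16. Benjamini-Hochberg adjustment covered all 14887 genes, with a threshold of 0.05. SE was derived from the log2 change and its F statistic. CPM per kb divides by merged exon length. Other settings used limma 3.58.1, DESeq2 1.42.0 and R 4.3.3. The fit was tested on simulated counts. A count of 0 allows up to 3 counts, 0.045 to 0.117 CPM by library, counting error only. The members and lists were chosen with earlier results of these data known. An item of the TGF-beta list is not reported here. Genes named beside the members were, by rule, up to 4 of each list with the smallest p among those that passed, and the nearest gene of each member.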

Additional observations from a re-analysis of the deposited data

Results flagged for a closer look

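Plod1 in lean replicate 2 (113 CPM) lay apart from the other lean tumours, which spanned 85.3 to 87.1 CPM; its gap to the nearest of them, as a share of the group's range, was above Dixon's 95% critical value of 0.829 for 4 samples. Among the 18 groups of 4 values examined (9 enzymes, obese and lean) this was the only such value, and chance alone flags about 1 in 20 groups.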

How the results depend on the processing

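The calls of Loxl1, Loxl2, Loxl3, Loxl4, Plod1 and Plod2 were kept in all 16 other fits (3 other scalings, 2 other filters, 3 other tests and leaving out each tumour in turn), with log2 changes of −2.32 to −1.83, 3.39 to 4.11, −2.40 to −1.68, 4.16 to 5.30, 0.76 to 1.09 and 1.53 to 2.16 and a highest adjusted p of 0.0204. The Lox log2 change stayed without a call and was 0.105 with limma-voom and quality weights (the cause was not tested). Plod3 passed in 5 of the 16 fits (adjusted p 0.0135 to 0.267 over all) and Tgm2 in 4 (0.00156 to 0.226). The number of enzymes that rose was 4 to 5 and that fell 2 to 3. Among all tested genes 3612 to 5592 rose and 3136 to 5805 fell in these fits. Over all genes 52.1% of calls were rises, and 41.2% with upper quartile factors. That scaling moved the median of all genes to −0.25 and library size alone to −0.22, by which all changes shift. The Col1a1 log2 change also turned in sign with limma-voom (−0.026) and with quality weights (−0.043), and spanned −0.442 (without obese replicate 2) to 0.910 (without obese replicate 3) when a tumour was left out. Of the fibrillar collagen chains 4 fell with limma-voom and with DESeq2's Wald test, against 2 in edgeR. Of the copper genes 4 fell under upper quartile or library size scaling and 0 to 3 when a tumour was left out, against 2. Other transglutaminases gave 0 to 1 rises and 0 to 2 falls over the 16 fits, against 1 and 0, hypoxia genes 1 to 2 falls, against 1, TGF-beta genes 1 to 2 rises, against 2, and propeptide proteases 1 to 2 falls, against 2. Chosen after the data were seen, family shares without length, with unshared length or without each tumour ranged over 78.7 to 84.9% in obese and 5.14 to 9.75% in lean tumours for Loxl2 with Loxl4, and over 8.28 to 11.8% and 55.0 to 63.8% for Loxl3. No paired analysis was possible because the labels give no replicate numbers that tumours of both groups share.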
